A study of Mus musculus with 10 samples.

Results

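The accessory subunits of the KMT2 complexes, as encoded by Men1, Psip1, Paxip1, Pagr1a, Ncoa6, Cxxc1, Wdr82, Hcfc1 and Kdm6a, are described here by the accessible chromatin found in and around their genes. The 9 genes were chosen by name, and every entry of a pooled list of accessible sites that touched a gene body or the 50 kb on either side of it was taken, which gave 84 of the 153924 sites in the list. The sites come from ATAC-seq, in which the transposase Tn5 inserts sequencing adapters into open chromatin, so that stretches with many insertions are called as accessible sites. The cells were immortalized mouse embryo fibroblasts (iMEF) in which the endogenous Ash2l alleles lack exon 4 and in which ASH2L function is provided by a lentiviral fusion of FKBP12 F36V, an HA2 tag and human ASH2L. All groups share this background, and the cells used for ATAC-seq were a single clone, NG3. Cells were untreated or exposed to dTAG-13, a PROTAC that recruits the fusion protein to an E3 ubiquitin ligase for degradation, for 30 min, 4 h, 8 h or 24 h, with 2 replicates in each of the 5 groups and 10 libraries in all. According to the methods the control cells received EtOH.

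KMT2 enzymes are histone methyltransferases that place mono-, di- and trimethylation on lysine 4 of histone H3. Each catalytic subunit needs a complex with WDR5, RBBP5, ASH2L and DPY30 to be efficiently active. Accessory subunits are found in some of the complexes only, and common and accessory subunits both matter for activity and for where a complex acts. KMT2A and KMT2B work with menin, the product of Men1, which bridges them to the chromatin reader LEDGF, the product of Psip1. KMT2C and KMT2D, which are best known for monomethylation at enhancers, carry PTIP (Paxip1), PA1 (Pagr1a), the nuclear receptor coactivator NCOA6 and the H3K27 demethylase UTX (Kdm6a). SETD1A and SETD1B, the main trimethylating enzymes at promoters, carry CFP1 (Cxxc1), which binds unmethylated CpG through a CXXC zinc finger, and WDR82, which binds the phosphorylated tail of RNA polymerase II. HCF-1 (Hcfc1), a scaffold that links several transcription factors to chromatin enzymes, is found with SETD1 as well as with KMT2A and KMT2B.

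The list gives a chromosome, a start and an end for each site and no value per library. The values below therefore describe chromatin that was accessible in any of the 10 libraries, carry no replicate error and were not compared between untreated and dTAG-13 treated cells, and the sequencing depth behind them is unknown. A start site is the 5′ end of any annotated transcript in GENCODE M21 (build mm10), and a site is called a promoter site of a gene when it touches the 1 kb on either side of one of its start sites. As a check of the labelled cell type, all 10 of 10 fibroblast genes examined, among them Col1a1 and Pdgfra, had a promoter site. So did 9 of 15 genes of other cell types, with Ptprc, Cd3e, Spi1, Nanog, Alb and Myod1 as the exceptions, so the presence of a promoter site does not by itself separate cell types.

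The DNA just upstream of the members is shown first, because these letters allow the accessible promoters to be set beside that of Men1, which is not in the list. The following runs are the 150 bases before the outermost start site of 8 of the 9 genes, that of Cxxc1 not being shown, written 5′ to 3′ in the direction of transcription and read from the RefSeq GRCm38.p6 genome, the same assembly as mm10. Capitals mark matches to 1 of 8 motifs searched on both strands, namely AP-1 TGANTCA, ETS CCGGAAG, the E-box CACGTG, the CCAAT box CCAAT, EGR GCGNGGGCG, YY1 AAGATGGCG and the CTCF and NRF1 consensus motifs. The runs lie at chr19:6334829-6334978 for Men1 (plus strand), chr4:83486460-83486609 for Psip1 (minus), chr5:27791692-27791841 for Paxip1 (minus) and chr7:127017353-127017502 for Pagr1a (minus). The others lie at chr2:155473895-155474044 for Ncoa6 (minus), chr9:106170778-106170927 for Wdr82 (plus), chrX:73966358-73966507 for Hcfc1 (minus) and chrX:18162425-18162574 for Kdm6a (plus).
Men1: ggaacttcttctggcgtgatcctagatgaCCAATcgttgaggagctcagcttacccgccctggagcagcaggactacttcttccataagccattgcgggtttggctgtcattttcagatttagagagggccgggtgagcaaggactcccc
Psip1: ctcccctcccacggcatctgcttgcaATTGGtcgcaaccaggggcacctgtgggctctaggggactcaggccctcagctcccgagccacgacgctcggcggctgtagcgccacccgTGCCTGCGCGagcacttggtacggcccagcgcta
Paxip1: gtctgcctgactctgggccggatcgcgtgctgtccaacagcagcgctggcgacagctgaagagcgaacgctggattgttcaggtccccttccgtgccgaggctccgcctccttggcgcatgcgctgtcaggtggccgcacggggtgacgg
Pagr1a: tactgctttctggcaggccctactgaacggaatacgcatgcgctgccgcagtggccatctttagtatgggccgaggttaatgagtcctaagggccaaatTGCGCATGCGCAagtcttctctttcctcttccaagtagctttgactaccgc
Ncoa6: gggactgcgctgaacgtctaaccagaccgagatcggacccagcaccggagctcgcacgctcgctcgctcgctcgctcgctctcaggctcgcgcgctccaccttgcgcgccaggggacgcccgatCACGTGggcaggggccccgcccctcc
Wdr82: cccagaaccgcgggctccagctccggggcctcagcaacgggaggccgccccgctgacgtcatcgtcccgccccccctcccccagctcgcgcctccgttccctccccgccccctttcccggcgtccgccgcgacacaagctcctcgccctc
Hcfc1: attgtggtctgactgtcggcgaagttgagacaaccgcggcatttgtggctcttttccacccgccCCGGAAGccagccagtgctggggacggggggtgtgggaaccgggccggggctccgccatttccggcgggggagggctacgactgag
Kdm6a: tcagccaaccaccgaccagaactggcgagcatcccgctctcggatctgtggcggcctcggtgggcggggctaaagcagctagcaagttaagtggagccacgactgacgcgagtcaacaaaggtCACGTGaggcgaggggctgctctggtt

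All of these runs except that of Men1 lie inside an accessible site. The Men1 run holds a CCAAT box 121 bases before the start and 5 CpG dinucleotides, the fewest of the 8, and the Pagr1a run holds 8, whereas the other 6 hold between 12 (Kdm6a) and 21 (Ncoa6). Psip1 has a CCAAT box in the reverse orientation and an NRF1 match whose bases begin 34 before the start. In Pagr1a the 12 capital letters are a pair of overlapping NRF1 matches on opposite strands, 51 and 49 bases before the start, and they are not independent of each other. Ncoa6 and Kdm6a each have an E-box, beginning 26 and 27 bases before the outermost start. Counted from the start of the main transcript, the E-box begins 114 bases before it in Ncoa6 and 27 in Kdm6a. Hcfc1 has an ETS match 86 bases before the start, and Paxip1 and Wdr82 have no match in this stretch.

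Outside the promoters of the members, the letters of interest are those of AP-1, the FOS and JUN family motif common in fibroblast enhancers, and CTCF, an architectural factor. The 3 CTCF matches in the middle 200 bp of distal member sites, which lie further than 1 kb from any start site, are shown with 4 of the AP-1 matches, 2 of them in distal sites and 2 in intron 14 of Ncoa6 near an inner start site. Each is given in 60 bases with the motif in capitals, on the strand that carries the motif as spelled above. The searched AP-1 form allows any base in its middle, so it is looser than the spellings TGAGTCA and TGACTCA. The wider Ncoa6 site matches it as TGAATCA and the other AP-1 sites shown as TGAGTCA. The CTCF matches are in a site 3′ of Paxip1 (chr5:27737368-27737427, plus strand), a site 5′ of Ncoa6 (chr2:155512619-155512678, plus) and a site 3′ of Wdr82 (chr9:106230898-106230957, minus). The AP-1 matches are in 2 neighbouring sites in intron 14 of Ncoa6 (chr2:155397194-155397253 and chr2:155397768-155397827, plus), in a site 3′ of Wdr82 (chr9:106193444-106193503, plus) and in a site 5′ of Kdm6a (chrX:18148893-18148952, plus). None of the 60-base stretches overlaps an annotated exon.
Paxip1 CTCF: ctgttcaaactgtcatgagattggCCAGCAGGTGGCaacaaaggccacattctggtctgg
Ncoa6 CTCF: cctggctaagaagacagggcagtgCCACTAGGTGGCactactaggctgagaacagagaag
Wdr82 CTCF: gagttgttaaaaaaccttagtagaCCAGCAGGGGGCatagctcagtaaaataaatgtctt
Ncoa6 AP-1, narrower site: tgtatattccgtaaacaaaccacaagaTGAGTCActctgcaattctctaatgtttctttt
Ncoa6 AP-1, wider site: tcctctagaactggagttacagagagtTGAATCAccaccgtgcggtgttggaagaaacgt
Wdr82 AP-1: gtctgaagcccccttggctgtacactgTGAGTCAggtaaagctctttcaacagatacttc
Kdm6a AP-1: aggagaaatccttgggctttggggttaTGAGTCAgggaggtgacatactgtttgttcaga

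The 84 sites were spread over 8 of the 9 genes, and Men1 had none. Ncoa6 and Wdr82 each had 16, Psip1 and Pagr1a 11, Hcfc1 and Kdm6a 9, Cxxc1 8 and Paxip1 4. Among all 21938 protein-coding genes, 90.8% had at least 1 site under the same rule, so that 8 of 9 members is close to the background. The sites fell into 23 that touched a gene body, 29 upstream and 32 downstream. A promoter site was present at 8 of 9 members, against 70.8% of all coding genes. Of the 84 sites, 12 lay at a start site of the member itself, 26 in the flanks lay at start sites of other genes, and 46 were distal, which means further than 1 kb from any start site. The 38 sites at any start site made up 45.2% of the member sites, whereas 17.2% of the whole list lay at a start site. The 95% Wilson interval of 35.0 to 55.9 for the members covers the sampling of sites only. It treats sites around the same gene as independent, which they need not be. The neighbourhoods were chosen around genes, which by construction places start sites in them.

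**Figure D1:**
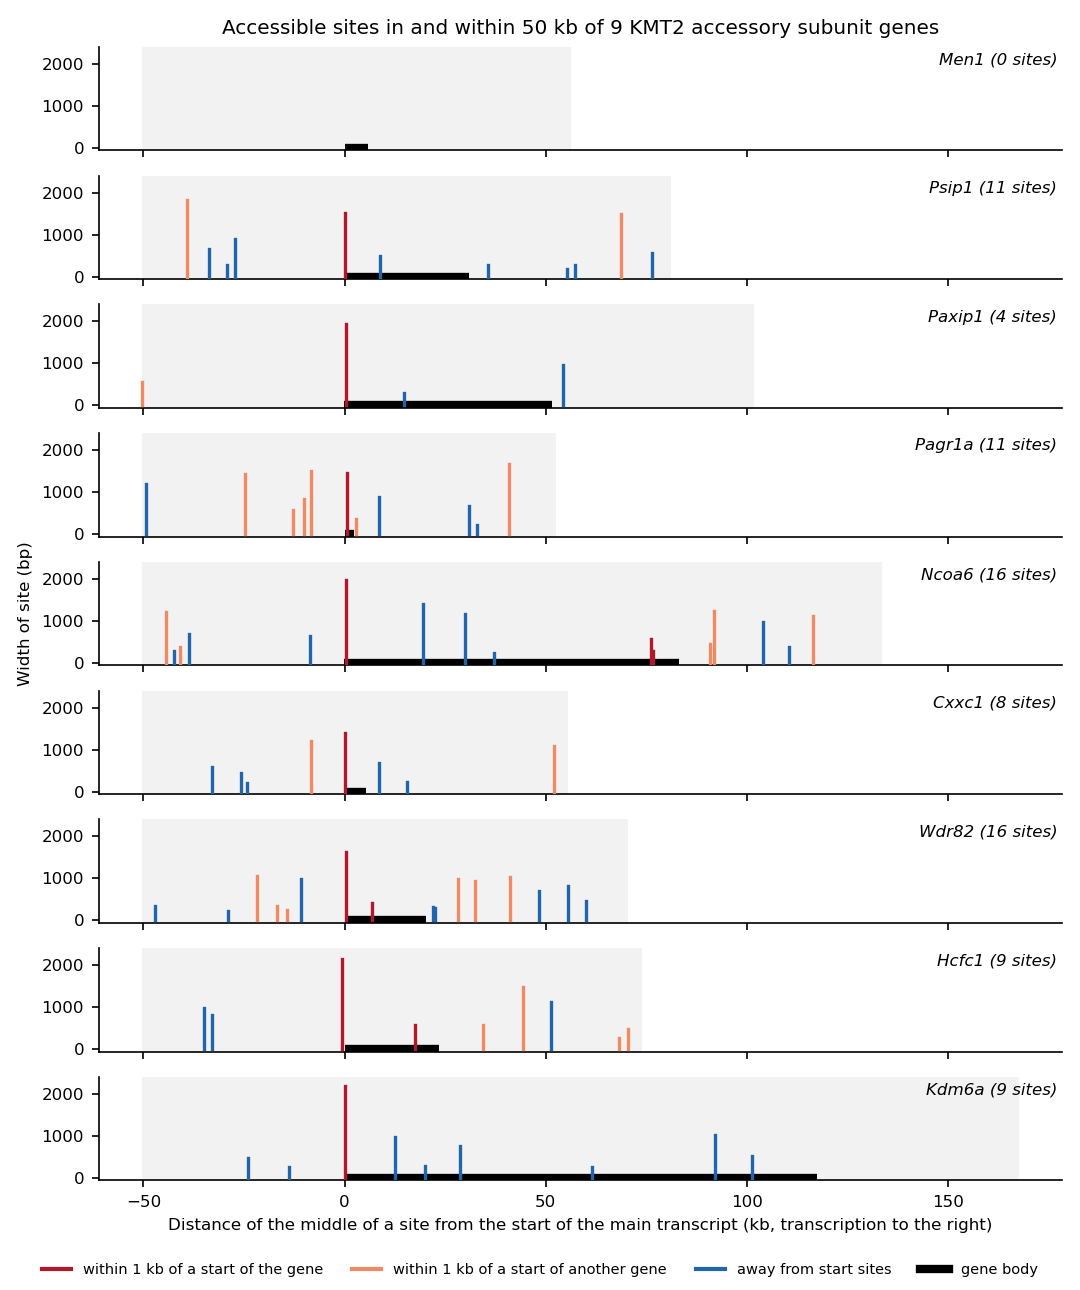
Sites around each of the 9 genes, with the distance of the middle of a site from the start of the main transcript on the x axis (kb) and the width of the site on the y axis (bp). Vertical lines are sites, the black bar is the gene body and the grey area is the gene body with 50 kb on either side. In 6 of the 8 genes with sites, all but Psip1 and Pagr1a, the tallest line stands at the gene's own start, while Men1 has no line and Kdm6a has 7 in its body and none downstream.

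For the KMT2A and KMT2B partners, the picture differed between menin and LEDGF. Psip1 (ENSMUSG00000028484.16, chr4:83455680-83486459, minus strand, 30780 bp) had 11 sites, of which 2 touched the gene body, 4 were upstream and 5 downstream. Its promoter site, chr4:83485560-83487068, was 1509 bp wide, covered exon 1 and exon 2 with 72 coding bases, and had a GC content of 65.6% with an observed to expected CpG ratio of 0.839. The remaining body site, 495 bp in intron 3 and 8.79 kb from the start, had a GC content of 44.0% and a CpG ratio of 0.0421. The widest distal site in the flanks was 888 bp wide and lay 27.1 kb upstream, and 2 further flank sites of 1485 bp and 1819 bp belonged to the starts of Snapc3 and Ccdc171.

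Men1 (ENSMUSG00000024947.17, chr19:6334979-6340891, plus strand, 5913 bp) had no site at any of its 12 start sites, in its body or within 50 kb. Under the same rule 9.15% of coding genes had none. Its main start had a GC content of 58.5% and a CpG ratio of 0.570 over 501 bp, which is below the ratio of 0.65 used here, together with a GC content of 55%, to call a start CpG-rich. Such starts made up 43.2% of all coding genes, and 97.0% of those had a promoter site. The 4 coding genes that start within 50 kb of Men1, namely Cdc42bpg, Map4k2, Sf1 and Pygm, were also without a promoter site, although the starts of the first 3 were CpG-rich. Sf1 encodes a splicing factor that binds the intron branch point, Map4k2 and Cdc42bpg encode kinases, and Pygm encodes muscle glycogen phosphorylase.

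The stretch without sites around Men1 extended from base 6182079 to base 6814275 of chromosome 19 and measured 632 kb. The nearest sites were 153 kb to the left and 479 kb to the right of the Men1 start. The stretch contained the starts of 13 coding genes, 8 of them CpG-rich (Majin, Atg2a, Ehd1, Cdc42bpg, Map4k2, Sf1, Rasgrp2 and Nrxn2), and none had a promoter site. Elsewhere on chromosome 19, 96.8% of 317 CpG-rich starts had one. The chromosome carried 70.8 sites per Mb, with 136 sites in the 1 Mb to the left of the stretch and 112 in the 1 Mb to the right. Of 153661 intervals between neighbouring sites on all chromosomes, 197 (0.128%) were at least as long, and on chromosome 19, where the median interval was 6854 bp, only 1 of 4351 was longer (634 kb). Ranked by the number of CpG-rich coding starts inside, the interval came second after 1 interval with 9.

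Of the 632 kb, 125510 bp formed 1 run of unsequenced bases that began 353 kb to the right of Men1, next to the right edge, so that 507 kb of known sequence had no site. Repeats masked in the reference made up 19.4% of the stretch and 31.0% of the chromosome, and the GC content was 51.1%. Of the 12 intervals in the list with 4 or more CpG-rich coding starts inside, 5, this one included, contained more than 10000 unsequenced bases. The share of all intervals with such bases is not given here, so the count has nothing to be read against. All libraries come from 1 clone, and in this list chromatin that was closed, sequence that the clone lacks, and sequence in which no reads were used or no sites retained cannot be told apart. None of these was tested. The absence of Men1 from the list is therefore not a measurement of closed chromatin at this gene.

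**Figure D2:**
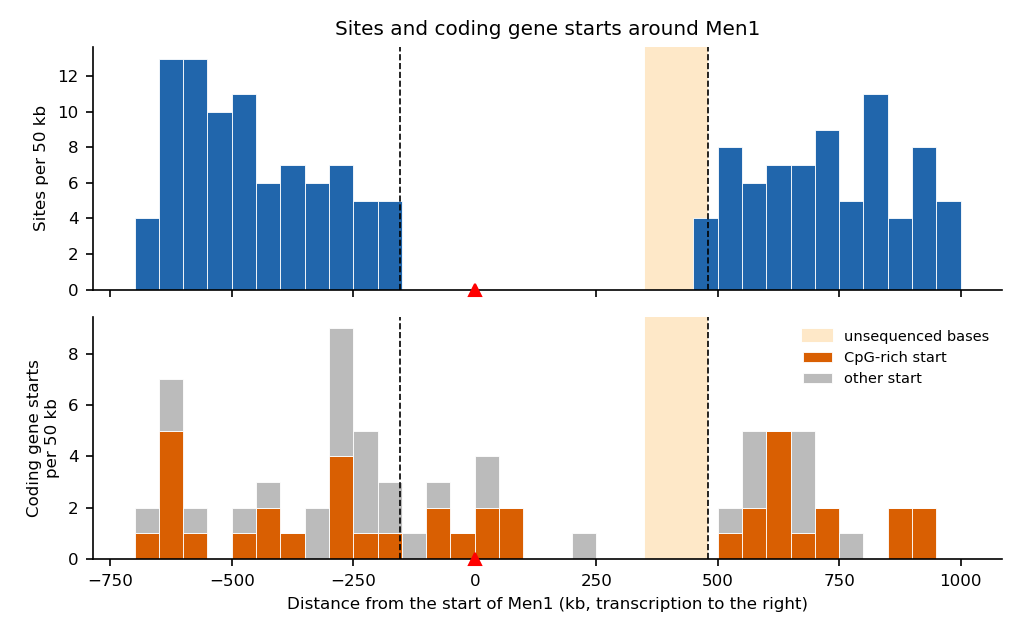
Number of sites (upper plot) and of coding gene starts (lower plot) per 50 kb, by distance from the start of Men1 (kb, red triangle). Dashed lines are the nearest sites, 153 kb to the left and 479 kb to the right, and the shaded area is the run of unsequenced bases. Coding starts, CpG-rich ones included, continue on both sides of Men1 while the count of sites is 0.

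Among the KMT2C and KMT2D partners, all 4 genes had a promoter site, of 1936 bp at Paxip1, 1450 bp at Pagr1a, 1966 bp at Ncoa6 and 2187 bp at Kdm6a. Paxip1 (ENSMUSG00000002221.11, chr5:27740080-27791691, minus strand, 51612 bp) encodes PTIP, a protein with BRCT domains that also acts in the DNA damage response. It had 4 sites, the fewest of the members with any, or 2.64 per 100 kb of body and flanks, a density at or above that of 16.2% of coding genes and of 13.2% of those on its chromosome. Its promoter site was located at chr5:27790313-27792248. The other body site was 305 bp in intron 4, the 951 bp downstream site with the CTCF match lay 54.1 kb from the start, and the fourth was at the start of the serotonin receptor gene Htr5a. No coding gene other than Paxip1 itself started within 50 kb of its body, and the Htr5a site lay at the edge of the window.

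Pagr1a (ENSMUSG00000030680.6, chr7:127015033-127017352, minus strand, 2320 bp), which encodes the PTIP partner PA1, was the shortest member and stood among many genes. It had 11 sites or 10.8 per 100 kb, and 7 of the 9 coding neighbours had a promoter site. Its own promoter site, chr7:127016081-127017530, was 1450 bp wide, reached only 178 bp upstream of the start but 1271 bp downstream, and covered 562 coding bases. The same site lies at starts of Gm42742 and Pagr1b, which the annotation places over Pagr1a on the same strand, so it cannot be assigned to Pagr1a alone. The start had a GC content of 54.3% and a CpG ratio of 0.760 and thus missed the GC threshold narrowly. The widest distal site was 1181 bp, lay 49.3 kb upstream and carried an AP-1 match.

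Ncoa6 (ENSMUSG00000038369.14, chr2:155390656-155473894, minus strand, 83239 bp) had 16 sites, 6 of them in its body. The site at the main start, chr2:155472481-155474446, was 1966 bp wide and overlapped exon 1 without any coding base. A pair of sites in intron 14 (chr2:155397008-155397291, 284 bp, and chr2:155397506-155398074, 569 bp) met the promoter rule because a transcript with a retained intron starts nearby. Both hold the AP-1 matches printed above, and their GC contents of 34.9% and 41.3% and CpG ratios of 0.233 and 0.124 are unlike those of the main promoter site (63.0% and 0.789). A coding start further inside the gene, at base 155440783, which RefSeq lists, had no site within 1 kb. The nearest site was 1157 bp wide in intron 2. The widest distal site in the body of any member was found in intron 1 of Ncoa6 (chr2:155453580-155454974, 1395 bp, 19.5 kb from the start) and also had an AP-1 match.

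Kdm6a (ENSMUSG00000037369.17, chrX:18162575-18279936, plus strand, 117362 bp) was the longest member and the one with the most sites in its body. Of 9 sites 7 touched the body, 2 lay upstream and none lay in the 50 kb downstream. The promoter site, chrX:18161566-18163752, was the widest of all 84 sites, and extended 1009 bp upstream and 1177 bp downstream of the start. Intron 2 held 3 sites of 960, 277 and 751 bp, and intron 6 held 1 of 257 bp. A site of 1022 bp lay over exon 17 with 580 coding bases (chrX:18254203-18255224), and a site of 524 bp touched exon 21 with 65 coding bases (chrX:18263521-18264044). These were the only body sites away from a start that touched an exon of the main transcript in any member. The 2 upstream sites, 479 bp at 24.1 kb and 267 bp at 13.7 kb from the start, both carried an AP-1 match in their middle.

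Both SETD1 partners had a CpG-rich start and a promoter site, of 1403 bp at Cxxc1 and 1626 bp at Wdr82. Cxxc1 (ENSMUSG00000024560.7, chromosome 18, bases 74216124 to 74221496, plus strand, 5373 bp) had 8 sites. Its promoter site (bases 74215510 to 74216912) was the narrowest among the sites at main starts and had the highest CpG ratio of the member promoter sites (0.914), and its start had a CpG ratio of 1.12, also the highest of the 9. The site at the start of Mbd1, which encodes a methyl-CpG binding protein, was 1097 bp wide and lay 52.1 kb downstream. The widest distal site was 670 bp and 8.42 kb from the start. Wdr82 (ENSMUSG00000020257.13, chr9:106170928-106191139, plus strand, 20212 bp) had 16 sites or 13.3 per 100 kb, the highest density of the members, at or above that of 81.6% of coding genes and of 85.9% of those on its chromosome. Its promoter site, chr9:106170522-106172147, covered 161 coding bases of exon 1. A narrower site in intron 2 (chr9:106177490-106177902, 413 bp) lay near the start of a transcript annotated as a target of nonsense-mediated decay and near Mirlet7g, the gene of a let-7 microRNA. It had a GC content of 37.3%, compared with 60.3% for the promoter site. The widest distal site near Wdr82 was 974 bp and 10.9 kb upstream.

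Hcfc1 (ENSMUSG00000031386.14, chrX:73942792-73966357, minus strand, 23566 bp), the subunit shared between complexes, had 9 sites. The promoter site, chrX:73965955-73968102, was 2148 bp wide and extended 1751 bp upstream but 396 bp downstream of the start, although no start of another gene lies within 1 kb of it. The only other body site (chrX:73948523-73949099, 577 bp) covered exon 18 with 164 coding bases and lay near the start of a shorter coding transcript. Its GC content was 49.9% and its CpG ratio 0.113, compared with 58.0% and 0.734 for the promoter site. Of 5 downstream sites 4 belonged to the starts of L1cam, Arhgap4, Naa10 and Renbp, and the remaining one was 1116 bp wide at 51.3 kb from the start. The density of 7.28 sites per 100 kb was at or above that of 39.8% of all coding genes but of 84.2% of those on the X chromosome, where the median was 3.28. Kdm6a, with 4.14 per 100 kb, likewise moved from 22.1% among all genes to 58.3% on the X chromosome.

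At the 8 genes with a promoter site, the site covered the start of the main transcript in every case. Among the 15530 coding genes with a promoter site, 13026 had the main start covered. The 8 member sites ranged from 1403 to 2187 bp, with a median of 1781 bp. The widest promoter site of a coding gene had a median of 1412 bp, or 1515 bp at genes with a CpG-rich start. A width of at least 2 kb was reached by 2 of the 8, both on the X chromosome (Hcfc1 and Kdm6a), beside 13.9% of coding genes with a promoter site. Among the 472 X-linked genes with a promoter site the median was 1336.5 bp, and 28 had a site at least as wide as that of Kdm6a and 30 as that of Hcfc1. The sites reached further into the gene than upstream of it in 7 of 8 members, Hcfc1 being the exception. The median reach was 630.5 bp upstream and 1198 bp downstream, beside 573 bp and 792 bp over the 13026 coding genes whose main start was covered. The medians of coding genes thus lean the same way, and the share of coding genes that reach further downstream is not given here. Over all 12 sites at member starts the median width was 1479.5 bp (95% interval from order statistics 569 to 1966), because the 4 additional sites at inner starts of Ncoa6, Wdr82 and Hcfc1 were between 284 and 577 bp wide. The interval treats sites of the same gene as independent, which they need not be.

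**Figure D3:**
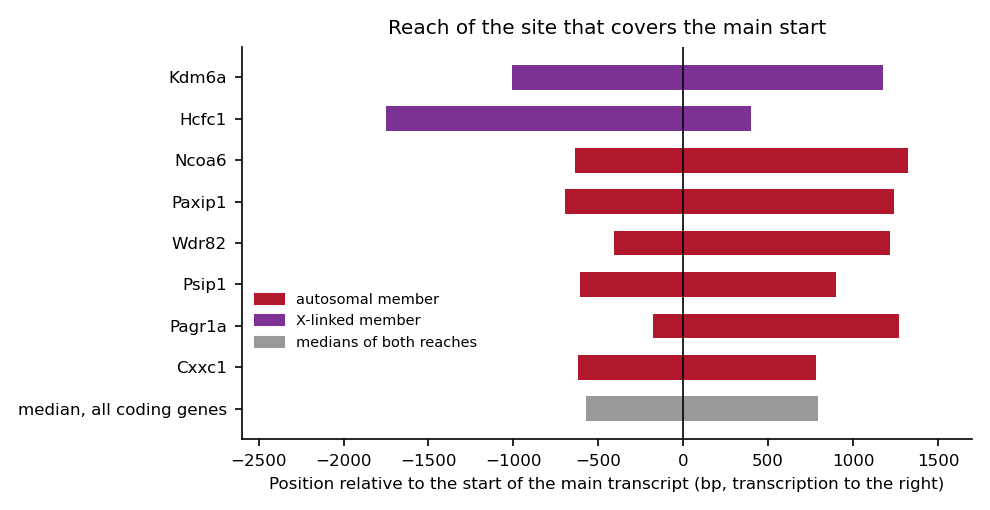
Extent of the site over the main start in bp relative to that start, with transcription to the right, for the 8 members with such a site and, in grey, the median reach in each direction over coding genes. Red bars are autosomal and purple bars X-linked members. All members except Hcfc1 reach further to the right, and Pagr1a reaches only 178 bp to the left.

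CpG-rich starts were found at 7 of 9 members, beside 43.2% of coding genes, and all 7 had a promoter site, beside 97.0% of such genes. The GC content in 501 bp around the main start ran from 54.3% (Pagr1a) to 79.0% (Ncoa6) and the CpG ratio from 0.570 (Men1) to 1.12 (Cxxc1). In the window from 250 bases before to 50 after the main start, no member had an AP-1 match, which 6.57% of coding genes had, or a CTCF match (0.538%). ETS matches were found at Cxxc1 and Hcfc1 (11.2% of coding genes), E-boxes at Ncoa6 and Kdm6a (7.68%), and CCAAT boxes at Men1 and Psip1 (38.6%). An EGR match was found at Ncoa6 (7.70%) and NRF1 matches at Psip1 and Pagr1a (7.39%). The YY1 motif, the rarest but for CTCF, was found at Wdr82, 20 bases into the transcript, and at Hcfc1 both 19 bases into the transcript and 174 bases before the start, whereas 1.93% of coding genes had it. These are matches of letters in a window, not measured binding, and with 9 genes a single match moves a share considerably.

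Away from start sites, 46 sites had a median width of 538.5 bp, close to the 565 bp of all distal sites in the list. Of these, 11 were in gene bodies, 6 in Kdm6a, 3 in Ncoa6 and 1 each in Psip1 and Paxip1, and 9 of the 11 were purely intronic. The 11 were between 241 and 1395 bp wide with a GC content from 32.7% to 53.8% and a CpG ratio of at most 0.292, hence below that of any member start. The middle 200 bp of the 46 sites held an AP-1 match in 6 cases or 13.0% (Psip1, Pagr1a, Ncoa6, Wdr82 and 2 near Kdm6a), beside 20.9% of all distal sites. CTCF was matched in 3 (6.52%), beside 3.05%, and ETS in 4 (8.70%), 2 near Pagr1a and 2 near Wdr82, beside 0.823%. With so few sites near so few genes a single match moves these shares considerably. The CpG ratio was 0.63 at the ETS site 10.9 kb upstream of Wdr82, 0.17 at the other near Wdr82, and 0.23 and 0.17 at those near Pagr1a. The CCAAT box, the most frequent of the 8 motifs here, was matched in 12 (26.1%), beside 24.5%. No match was found in the 46 for the E-box, which 2.53% of all distal sites had, or for EGR (0.162%), YY1 (0.123%) and NRF1 (0.156%). The AP-1 matches in intron 14 of Ncoa6 are not among the 6, because those sites count as promoter sites. Among the 6, the matches at Pagr1a and in intron 1 of Ncoa6 read TGAATCA, which the open middle base of the searched form allows. The others of the 6 read TGAGTCA or TGACTCA. Both the 6 and the 20.9% of all distal sites were counted with the looser form, so neither is a count of those 2 spellings alone.

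Taking gene body and flanks, the 9 neighbourhoods comprised 1240 kb and together held 6.77 sites per 100 kb, with Men1 counted as 0. The chromosomes as a whole held 5.64. Gene by gene, the median of the members was 7.59, beside a median of 8.66 over coding genes (9.98 with a CpG-rich start). The sites covered 67660 bp or 5.45% of the neighbourhoods. Per gene the density ran from 0 at Men1 and 2.64 at Paxip1 to 10.8 at Pagr1a and 13.3 at Wdr82. Cxxc1 (7.59), Psip1 (8.41) and Ncoa6 (8.73) lay near the median of coding genes. Within 50 kb of the members 29 other coding genes start, of which 21 had a promoter site. Of 14 with a CpG-rich start 11 had one, and the 3 without were those next to Men1. By the same rule the 10 core and catalytic genes (Ash2l, Wdr5, Rbbp5, Dpy30, Kmt2a, Kmt2b, Kmt2c, Kmt2d, Setd1a and Setd1b) had 163 sites, between 9 and 31 per gene with a median of 15.5, compared with 0 to 16 and a median of 9 for the accessory subunits. All 10 had a promoter site, and the widest one of each gene had a median of 1669 bp, compared with 1781 bp for the accessory subunits. The 6 H3K4 demethylase genes (Kdm5a, Kdm5b, Kdm5c, Kdm5d, Kdm1a and Kdm1b) had 90 sites, with a median of 17 per gene. Kdm5d on the Y chromosome was the only one without a site, and the widest promoter site of each of the others had a median of 1713 bp. Per 100 kb of body and flanks the medians were 7.59 for the accessory, 11.1 for the core and catalytic and 10.9 for the demethylase genes. Men1 and Kdm5d entered their lists as 0. The ranges of the 3 lists overlapped, and the lists were not tested against each other.

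**Figure D4:**
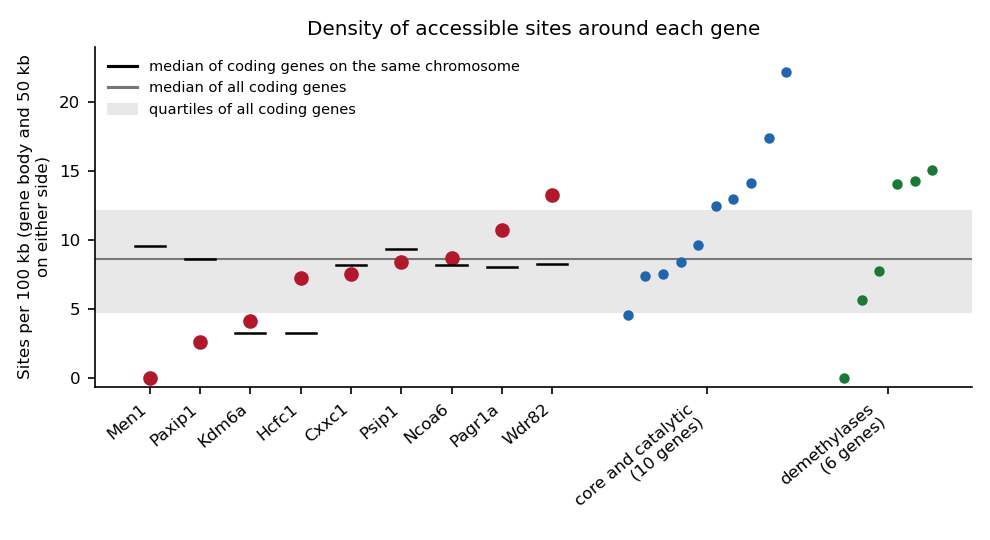
Sites per 100 kb of gene body with 50 kb on either side for the 9 members (red), the core and catalytic genes (blue) and the demethylase genes (green). Black lines are the median of coding genes on the chromosome of each member, the grey line the median of all coding genes (8.66) and the grey band their quartiles (4.79 and 12.1). Men1, Paxip1 and Kdm6a lie below the band and Wdr82 above it, and both X-linked members, Kdm6a and Hcfc1, lie above the median of the X chromosome (3.28).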

How the data were processed

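The deposited file lists accessible sites pooled over all libraries by chromosome, start and end. According to the methods, the authors trimmed reads with Trim Galore, aligned them to mm10 with BWA, filtered them as ENCODE recommends, merged replicates (Picard) and used MACS to call narrow peaks. The notes of the authors also name SAMtools, deepTools and DESeq2. Versions, the peak threshold, any Tn5 shift and the joining of sites across libraries are not given in the sources used here, and each affects the number and width of sites. Positions were read as 0-based with an open end and are printed 1-based (a wrong reading would move them by 1 bp). No site ended beyond its chromosome in GRCm38.

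Genes came from GENCODE M21. Sites were assigned by an overlap of at least 1 bp with the body, the 50 kb flanks or 1 kb around start sites. The main transcript had the longest coding sequence. CpG-rich starts had a GC content over 55% and a CpG ratio over 0.65 in 501 bp. Percentiles count coding genes at or below a value. Named were the 9 members with their promoter sites and widest other sites, genes sharing a promoter site, and the comparison lists; neighbours of the members and genes of the interval around Men1 were named after their values were seen. Members and lists were chosen with earlier results of these data known. No test was run. Python 3.11.15, NumPy 2.4.6, SciPy 1.17.1 and Matplotlib 3.10.9 were used, and the computations were tested on simulated data. Alternatives covered other flanks, windows, annotations, start sites, site widths and merging.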

Additional observations from a re-analysis of the deposited data

How the results depend on the processing

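The number of members with a promoter site was 8 under each alternative that gave it. When sites narrower than the median width were dropped, the members had 45 sites, 13 of them in gene bodies, or 3.63 per 100 kb. Flanks of 25 kb gave 53 sites and flanks of 100 kb gave 135. A promoter window of 3 kb placed 57.1% of the member sites at a start site. The share was 36.9% with the RefSeq annotation and 35.7% when the outermost start of each gene alone was used. Of 38 recomputed values 32 stayed within 1.5 times the reported count or within its interval. Merging sites at most 100 bp apart changed no value, and the interval for the promoter width was broad (569 to 1966 bp). The tally is therefore not a measure of stability. A pair of alternatives were chosen after seeing the data: leaving out Men1 gave 7.40 sites per 100 kb, and looser thresholds for CpG-rich starts (GC content over 0.5 and ratio over 0.6) gave 9 rather than 8 such genes in the interval around Men1. No paired analysis was possible because the pooled list holds no value per library. For the same reason no replicate could be left out, and weak sites missed at the depth of these libraries cannot be told from closed chromatin.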
